A study of Mus musculus with 4 samples.

Results

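Gpm6b encodes the membrane glycoprotein M6B, a small protein that crosses the cell membrane several times. It belongs to the same protein family as Gpm6a. M6B is best known from neurons and myelinating glia and has also been studied in osteoblasts. The nail matrix, in contrast, is an epithelium at the root of the nail, and its cells multiply and harden into the nail plate.

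The gene was followed through every probe set (a group of short oligonucleotides that read a transcript) to which the authors' deposited list gives the symbol Gpm6b alone. There was 1 such probe set, 1423091_a_at (Entrez gene 14758), and none that names Gpm6b together with another gene. It stands for 1 of 1133 genes with a single symbol in that list. The list was selected on the fold between the regions, at a cut-off of 1.99, so Gpm6b could be named because it differed on these same arrays. Its distal and proximal levels are therefore given as a description, with no test.

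The 4 Affymetrix Mouse430_2 arrays read total RNA of intact nail matrix microdissected from mice aged 8 weeks, 2 arrays of the distal matrix, which lies closer to the nail bed, and 2 of the proximal matrix, which lies deeper under the nail fold. Genotype, strain and sex are not given in the sources used here, and neither group is labelled with a treatment. Each region has a replicate 1 and a replicate 2. Whether they are separate animals or pools is not stated, so p-values cover the scatter between these arrays alone, which may be technical. Of 45037 probe sets, median intensities lay between 41.6 and 55.7 on the 4 arrays. Krt42, a keratin of nail tissue, was read on each array, at 731 and 1415 in proximal and at 8877 and 12310 in distal matrix. Those values are of its brighter listed probe set. The other listed one read 270 and 402 in proximal and 1357 and 1771 in distal matrix.

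RefSeq places Gpm6b on the X chromosome and lists 11 transcripts for it. The suffix of the probe set marks one that reads several transcripts of a gene, so its intensity cannot be divided among isoforms. The 250 bases before the annotated start, chrX:166238693-166238942 on the plus strand of GRCm38.p6 in the RefSeq promoter table, are shown because they are the only regulatory sequence of the gene at hand. Capitals mark the palindrome TGACGTCA, known as the cAMP response element.
Gpm6b upstream: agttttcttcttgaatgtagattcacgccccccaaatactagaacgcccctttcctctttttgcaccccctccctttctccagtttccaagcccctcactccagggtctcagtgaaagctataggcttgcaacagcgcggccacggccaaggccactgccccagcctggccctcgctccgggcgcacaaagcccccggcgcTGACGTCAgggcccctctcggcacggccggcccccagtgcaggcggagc

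The first base of the palindrome lies 49 bases before the start. The same letters were found in 1.55% of 32851 upstream windows of this length. The window was 63.2% G and C with 15 CpG pairs, against medians of 52.4% and 6 over all windows. Searched on both strands, CTTTGT, a core read by TCF/LEF factors, occurred once, 65 bases before the start, and 16.5% of windows hold it. The letters CTTTGA (13.8% of windows), GGGCGG (32.7%) and TATAAA (12.4%) were not in this window. These motifs were chosen after the sequence was seen, and a match describes letters, not a bound site.

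The listed probe set of Gpm6b was read at high intensity in the proximal matrix and not above background in the distal matrix. Probe sets outside the list carry no gene name here, so any others that read Gpm6b are not analysed and may differ. Its intensity was 918 and 1063 on the proximal arrays. On the distal arrays it was 8.6 and 48.2. The lowest proximal value stood far above the highest distal one. The 2 proximal arrays differed by 1.16-fold from each other and the 2 distal arrays by 5.60-fold.

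Background was judged from 27 control probe sets for genes of the bacterium Bacillus subtilis, which mouse tissue does not hold. The highest of them read 96.8 and 45.4 on proximal replicates 1 and 2, and 58.0 and 81.0 on distal replicates 1 and 2. On every array it exceeded the median intensity of all probe sets. Those medians were 55.7 and 41.6 on proximal and 45.2 and 48.4 on distal replicates 1 and 2. The highest control is thus a strict limit that many probe sets do not reach. Gpm6b lay below that control on both distal arrays, where 11 and 3 of the 27 controls were brighter than Gpm6b. On the proximal arrays no control was brighter, and Gpm6b stood 9.48-fold and 23.4-fold above the highest one. Against the median control, 6.8 and 13.5 on the distal arrays, Gpm6b was brighter on both, so its distal signal lies within the range of the controls rather than at their lowest end. In these bulk samples, fewer cells that make a transcript and less of it per cell cannot be told apart.

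**Figure D1:**
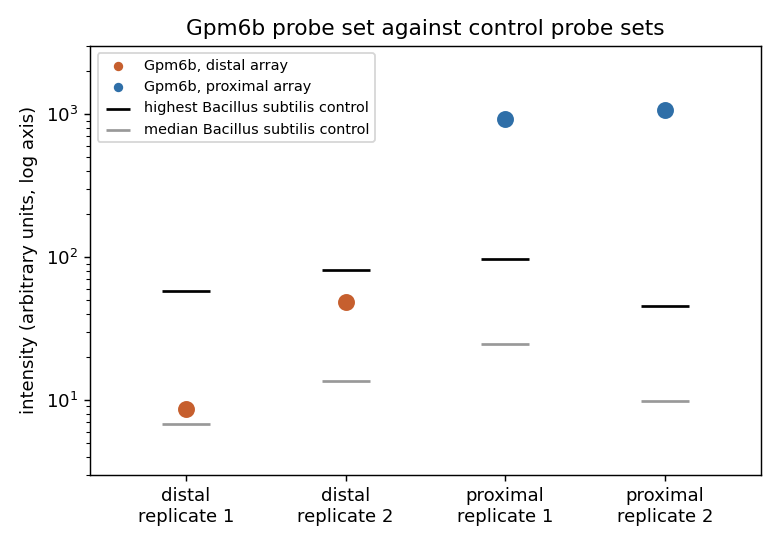
Intensity of the Gpm6b probe set (points, log axis) on each of the 4 arrays, with the highest (black bar) and the median (grey bar) of 27 Bacillus subtilis control probe sets on the same array. Gpm6b lies at 8.6 and 48.2 on the distal arrays, below the highest control, and at 918 and 1063 on the proximal arrays, above it.

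On the log2 scale, with intensities below 1 raised to 1, Gpm6b had a level of 4.35 ± 1.76 in the distal and 9.95 ± 0.15 in the proximal matrix (SD, n = 2 arrays each). The difference, distal minus proximal, was -5.60. It was -4.36 without distal replicate 1 and -6.84 without distal replicate 2. Both distal values were below the highest control. It was -5.71 and -5.49 without proximal replicate 1 and 2. A bound does not rest on those distal values. It sets the geometric mean of Gpm6b in the proximal matrix against that of the highest control on each distal array. That ratio was 14.4-fold, a log2 difference of -3.85. Leaving out 1 array at a time put that bound between 12.2-fold and 17.0-fold. For single pairs of a proximal and a distal array it ran from 11.3-fold to 18.3-fold.

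Over all 45037 probe sets, the log2 difference of Gpm6b was the 6th from the proximal end. The 5 beyond it were Pdk4 (-6.81), Ehf (-6.06), Abcf3 (-5.83), Mycbp (-5.69) and Kdsr (-5.63). Their order rests on how far below background the distal values fall. Ehf, for instance, an epithelial transcription factor gene, read 115 and 85.4 on the proximal and 1.3 and 1.7 on the distal arrays. When every intensity was first raised to the highest control of its array, Gpm6b came first of all 45037 at -3.85, ahead of Pdk4 at -3.17 and Cdt1, a gene of replication licensing, at -3.0.

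**Figure D2:**
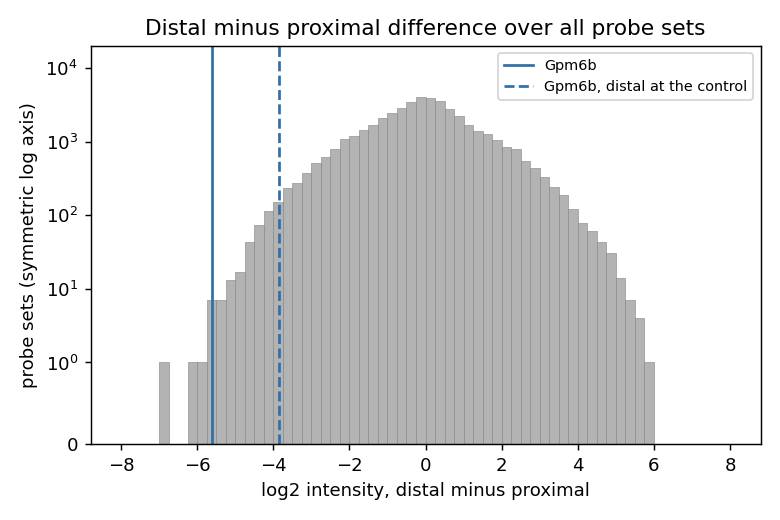
Number of probe sets (symmetric log axis) by their log2 intensity difference, distal minus proximal, in bins over all 45037 non-control probe sets. The solid line marks Gpm6b at -5.60, near the proximal end, and the dashed line its bound of -3.85 with the distal arrays at the highest control.

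The authors' deposited table puts Gpm6b 8.44-fold higher in the proximal matrix. There it ranks 5th of the 1010 probe sets listed as higher in proximal matrix (2.24% of 45037), whose median fold was 2.35. The authors' deposited table has Pdk4 (17.3-fold), Cdt1 (13.9-fold), Itga8 (9.52-fold) and Hdc (8.69-fold) above it, and the next below is at 6.96-fold. The lowest fold in the authors' deposited table was 1.99, so Gpm6b lies well inside the limit.

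The authors' deposited log2 values for the gene were -1.60 in the distal and 1.47 in the proximal matrix. Their difference of -3.08 is smaller than the -5.60 from the deposited intensities. Of the probe sets in the authors' deposited table that were higher in proximal matrix, 105 were, like Gpm6b, above the highest control on both proximal arrays and on neither distal array. Their median difference was -2.91 in the intensities and -1.27 in the authors' deposited table. For 531 probe sets above the control on all 4 arrays, the medians were -1.04 and -1.23. The 2 sources were further apart for the first group. The groups were split on these same intensities, which favours a large intensity difference in the first. That contrast is therefore partly fixed by the split and is no independent result. The direction was the same in both sources for 1415 of 1435 probe sets in the authors' deposited table.

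**Figure D3:**
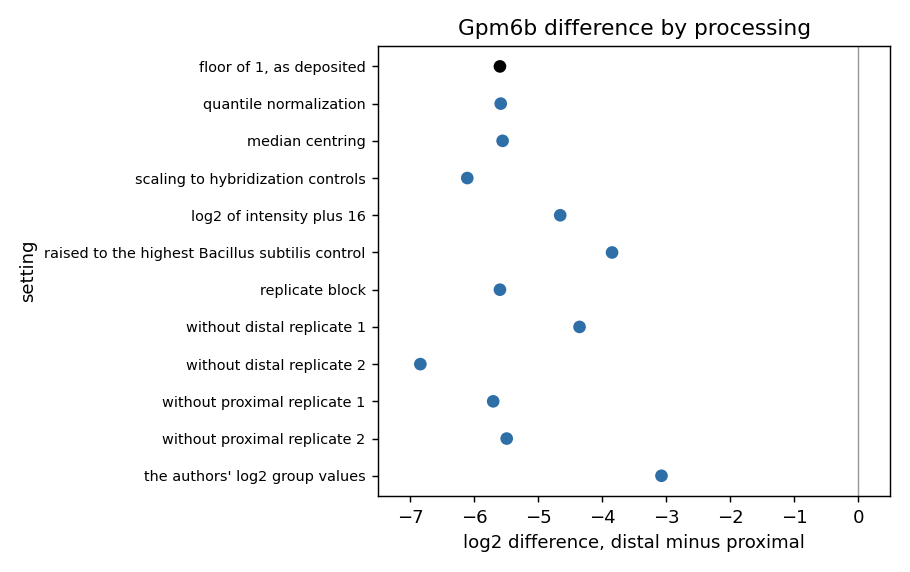
Log2 difference of Gpm6b, distal minus proximal, with the deposited intensities and a floor of 1 (black) and under the alternatives (blue). Each row is 1 setting. The mean over listed probe sets, which repeats the main value, is not drawn. All values lie below 0, from -6.84 without distal replicate 2 to -3.08 in the authors' deposited table.

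Being above the highest control on both proximal arrays and on neither distal array was shared by 895 probe sets, 1.99% of 45037. The reverse pattern was found for 589, 1.31%. With 1 array left out, which asks less of a probe set, the proximal count was 2591 against a reverse count of 2125 without distal replicate 1, and 4282 against 770 without proximal replicate 1. The reverse count was the larger without distal replicate 2 (1634 against 3470), without proximal replicate 2 (1758 against 2039) and with the median control (963 against 1835), so which pattern is the more frequent depends on the setting. Gpm6b had the pattern each time, and also against the highest trp control, but not against the median control. Of the 895, 86 carried a single gene symbol.

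The named genes most like Gpm6b were looked for among the other 1132 genes with a single symbol. Intensities were raised to the highest control of the array and expressed as log2 over it, and each profile was centred on its mean over the 4 arrays. Likeness was the root mean square difference from the Gpm6b profile. A gene with more than 1 listed probe set was represented by the one nearest to Gpm6b, a choice that favours likeness. The nearest 10 lay between 0.44 and 0.85 log2 units from it, against a median of 1.57 over the genes ranked. Over all probe sets, 6 more that are not named here lay as close. The 11th gene lay at 0.86, so the limit of 10 cuts through close values.

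Pdk4, whose kinase turns off pyruvate dehydrogenase, was nearest (0.44), with intensities of 752 and 506 on the proximal and 10.1 and 3.0 on the distal arrays. Itga8, an integrin subunit gene of mesenchymal cells, followed (0.63), with 344 and 508 on the proximal and 9.6 and 41.3 on the distal arrays. Hdc, whose enzyme makes histamine and is known from mast cells, read 298 and 430 on the proximal and 5.2 and 53.6 on the distal arrays. Like Gpm6b, all 3 were above the highest control on both proximal arrays and on neither distal array.

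Fbxl20, a gene of an F-box protein of ubiquitin ligases, was the other near gene with that pattern, at 517 and 334 on the proximal and 46.5 and 9.0 on the distal arrays. Its second listed probe set went the opposite way, with 270 and 104 on proximal arrays against 516 and 1285 on distal ones. The probe sets shown for Fbxl20, Hdc and D13Ertd787e carry a suffix for sequences shared between genes, so they can read more than 1 transcript.

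Eif2s3y, a Y-linked gene of a translation initiation factor, was the 5th nearest. It read 383 and 358 on the proximal and 62.3 and 66.7 on the distal arrays. Both distal values lay close to the control, just above its 58.0 on distal replicate 1 and below its 81.0 on distal replicate 2. Gpm6b itself is X-linked. The part that the sex of the animals has in the levels of Gpm6b was not tested.

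The remaining 5, like Eif2s3y, had at least 1 distal array above the control. They were Clcn3, an endosomal chloride transporter gene, Mdm2, whose ubiquitin ligase restrains the tumour suppressor p53, Braf, a kinase gene of the MAPK cascade, the uncharacterised D13Ertd787e, and Lrp4, a receptor gene that binds agrin. Their log2 differences, distal minus proximal, ran from -4.61 for Braf to -2.25 for Mdm2. The value of Braf was -2.31 without distal replicate 2 and -6.91 without distal replicate 1, and another listed probe set of Braf differed by 0.46. Another listed probe set of D13Ertd787e differed by -1.29, against -2.53 for the one shown. Mdm2 alone of the 10 was above the control on both distal arrays, at 139 and 170, against proximal values of 535 and 1002. With a floor of 1 in place of the control, 2 of the 10 genes, Itga8 and Hdc, were again among the nearest 10, so the other names depend on how background is treated.

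**Figure D4:**
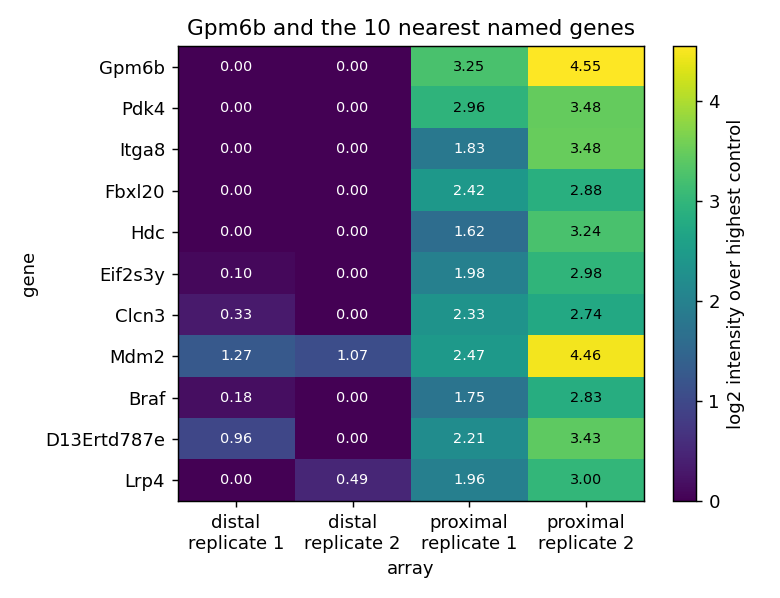
Log2 intensity over the highest Bacillus subtilis control of each array (colour and number, 0 meaning at or below that control) for Gpm6b and its 10 nearest named genes (rows) on the 4 arrays (columns). Gpm6b reads 3.25 and 4.55 on the proximal arrays and 0 on both distal ones, and Mdm2 is above 0 on every array.

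Of genes known from the same settings as Gpm6b, few could be named. Its relative Gpm6a was not in the authors' list and is not analysed here. Of 21 growth cone and neurite genes, 3 were listed. Dpysl3, a growth cone protein gene, read 39.7 and 57.6 on proximal arrays and 182 and 225 on distal ones. It was higher in the distal matrix and so opposite to Gpm6b. Its proximal values lay near background, where the highest control read 96.8 on replicate 1 and 45.4 on replicate 2. Marcks, whose protein links the membrane to actin, read 616 and 274 on proximal arrays and 153 and 233 on distal ones.

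Sema5a, a semaphorin gene of axon guidance, read 2.5 and 1.6 on proximal arrays and 381 and 2.8 on distal ones, so its distal level rests on distal replicate 1. Of 7 serotonin genes, listed because M6B is known to bind the serotonin transporter, Maoa was listed. Its product breaks down serotonin. It read 183 and 314 on proximal arrays and 116 and 85.8 on distal ones.

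None of these 4 genes passed limma at a Benjamini-Hochberg adjusted p under 0.05 over all 45037 probe sets, where 0.0666% passed (30 in all, with 0.0133% passing toward proximal and 0.0533% toward distal matrix). These genes too could be named only through a list selected on the fold between regions on these arrays, so their values are no independent evidence of a direction. With no adjustment, 1 of them, Dpysl3, had a p under 0.05, as did 5.09% of all probe sets. The log2 differences were 2.08 ± 0.87 for Dpysl3, -1.12 ± 0.57 for Marcks, 4.03 ± 2.02 for Sema5a and -1.27 ± 0.71 for Maoa (limma SE, n = 2 arrays per region), each with a limma adjusted p of 0.905. Over the alternatives the limma adjusted p-values of these genes lay between 0.151 and 1.0. The difference of Sema5a was 0.49 without distal replicate 1, and that of Marcks -0.54 without proximal replicate 1. The median was 2.08 over the 3 growth cone genes, or 0.49 without distal replicate 1, and -0.06 over all probe sets, most of which did not have to meet a fold cut-off. The number of probe sets passing rested on single arrays, at 899 and 635 without distal replicate 1 and 2, and 4 and 7 without proximal replicate 1 and 2. The split of 24 distal and 6 proximal turned to 306 and 593 without distal replicate 1, to 233 and 402 without distal replicate 2, and to 3 and 9 when arrays were scaled to hybridization controls.

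None of 27 four-span and myelin-type membrane genes, 10 raft and caveola genes and 11 mineralization genes was in the authors' list. Of marker genes of the cells that usually make M6B, 0 of 16 for Schwann cells and 0 of 12 for neurons could be named, and 0 of 6 for bone. Their levels beside Gpm6b are not analysed here. The same holds for melanocytes (10 genes), Merkel cells (7), endothelial and mural cells (8), immune cells (8), muscle (6) and fat (4). Of 10 fibroblast markers, Dcn was listed, and it was higher on the same arrays as Gpm6b, with 984 and 1049 on the proximal and 243 and 310 on the distal arrays. Its log2 difference of -1.89 did not pass (limma, adjusted p = 0.125). It passed with the replicate number as a block (limma, adjusted p = 0.0461), where 90 probe sets passed in all, against 30 without it. With 1 array left out the difference ran from -2.07 without distal replicate 2 to -1.71 without distal replicate 1. Dcn was named through the same fold-selected list. The part of fibroblasts in the level of Gpm6b was not tested.

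Among keratinocyte markers, 2 of 8 basal, 3 of 6 suprabasal and 4 of 11 nail and hair genes were listed. Krt15, a basal keratin gene, read 2306 and 2372 on the proximal and 612 and 907 on the distal arrays. This was the same direction as Gpm6b, and Krt2, Lor and Hoxc13 also had higher levels in the proximal matrix. Lor read 58.7 and 4.2 on distal replicates 1 and 2, where the highest control read 58.0 and 81.0. Itgb4 overlapped between regions, at 12.1 and 182 on distal and 216 and 163 on proximal arrays. Krt1, Krt42, Krtap6-2 and Krtap8-1 had higher levels in the distal matrix. All of these markers were named through the same fold-selected list, so their directions are no independent evidence.

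The authors' deposited table annotates Gpm6b as integral to membrane and gives it no biological process or molecular function. Of 213 probe sets with that membrane term in the authors' deposited table, 157 were higher in proximal matrix, 73.7%, against 70.4% of the whole table, so the membrane genes as a group lay near the share of the table.

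The Gapdh controls, read near both ends of the transcript to judge RNA length, gave 3' over 5' intensity ratios of 7.73 and 8.15 in proximal and 9.40 and 6.73 in distal matrix, which overlap. The 3' end thus read several-fold brighter than the 5' end on every array. How far RNA length limits the intensities was not tested. The spiked hybridization controls had a geometric mean of 34058 on proximal replicate 2 and between 56627 and 73043 on the other arrays. Scaled to them, the difference of Gpm6b was -6.11, where the median of all probe sets moved by -0.51.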

How the data were processed

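Trizol was used to extract the RNA, and biotin labelling used a 3' expression kit, per the labels' protocols. The authors deposited a linear intensity for each probe set, with the scaling method not stated in the labels or file. They also deposited a table with an unsigned fold ratio and log2 values per region, made at a fold cut-off of 1.99 with distal matrix as control, per the file headers. The steps behind those log2 values are not stated there, and 0 columns were left without a sample or comparison.

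From the intensities, values below 1 were raised to 1, log2 was taken and the 64 control probe sets were left out. Differences are distal minus proximal. The 45037 other probe sets were fitted with limma 3.58.1 in R 4.3.3 (lmFit, eBayes with a variance trend), two-sided, calling probe sets at a Benjamini-Hochberg adjusted p under 0.05. The script was tested on simulated data. Gene names come from the authors' list, and a gene of a list is represented by its brightest listed probe set. A near gene is represented by its listed probe set nearest to Gpm6b.

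The named genes were Gpm6b, the 10 genes nearest to it by profile, and listed members of the gene and marker lists; Ehf, Abcf3, Mycbp, Kdsr and Cdt1 were added after their values were seen. Gpm6b and the lists were chosen with earlier results of these data known. Alternatives covered scaling, floor, background control, filter, variance trend, replicate block and left-out arrays. The number of arrays limits the precision.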

Additional observations from a re-analysis of the deposited data

How the results depend on the processing

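The difference of Gpm6b was below 0 under each of the 12 alternatives run. For several of them this was fixed in advance. The mean over all listed Gpm6b probe sets repeats the main value, because only 1 is listed. The replicate block, a left-out array, adding 16 and raising to the control cannot reverse the sign. Both proximal values exceed both distal values and the highest controls. It was -3.85 with intensities raised to the highest Bacillus subtilis control and -3.08 in the authors' deposited table. With 1 array left out it lay between -6.84 and -4.36. It stayed within the replicate SD of 1.25 under the other settings, including -4.66 for log2 of the intensity plus 16.

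The number of probe sets that passed limma was 30, and 9 under quantile normalization, 8 under median centring, 12 when scaled to hybridization controls, 17 with 16 added, 2 among brighter probe sets and 0 without the variance trend (3010 at an unadjusted p under 0.05). It was 144 with intensities raised to the highest Bacillus subtilis control, a setting added after seeing the data that gives dim probe sets equal values. With 1 array left out it ran from 4 to 899. The causes were not tested. The replicate number as a block gave 90 and left the difference of Gpm6b at -5.60, as it must in a balanced design. Deviations of same-numbered arrays correlated at -0.00723 over probe sets. With 1 pair of arrays per region and many probe sets near background, this cannot settle whether same-numbered arrays share an animal or batch.

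The count above background in proximal matrix alone was 1644 against the highest trp control, and 1634 to 4282 with 1 array left out, where fewer arrays had to meet the rule. Of the 10 genes nearest to Gpm6b, 2 were shared with the ranking at a floor of 1. For the other named genes, 154 alternative values gave 138 that kept their call or stayed within the replicate SD and 13 that moved by more than it. The other 3 were for Dcn, whose call changed under the replicate block (limma, adjusted p = 0.0461) and with each distal array left out. None of the 154 changed sign. For the 10 near genes, leaving out 1 array cannot change the sign or move a value beyond that SD. The replicate block leaves their values as they are. Braf without distal replicate 1 sat at that limit and was counted as moved through rounding. These settings are thus no check of the near genes. Signal near background limits the distal level of Gpm6b.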
